A study of Mus musculus with 19 samples.

Results

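GPR183, also called EBI2, is a chemoattractant receptor of immune cells that couples to the inhibitory G protein Gi and binds oxysterols, oxidised forms of cholesterol. Its strongest known ligand is a dihydroxycholesterol that is made in steps: cholesterol 25-hydroxylase (*Ch25h*) adds a first hydroxyl group to the side chain, the oxysterol hydroxylase *Cyp7b1* adds a further one to the sterol ring, and the dehydrogenase *Hsd3b7* converts the product to a form that no longer acts on the receptor. *Cyp27a1*, a mitochondrial enzyme, hydroxylates the same side chain at a neighbouring position and feeds a parallel route. The receptor *Gpr183* and these 4 enzymes were looked up by symbol among the 27299 genes of the expression table. The members are thus 5 genes, of which 4 had a row, and *Hsd3b7* is not analysed here. *Gpr183* was chosen by its measured values, since it was picked for its lower level after laser treatment, so its difference between the groups is described without a test. The enzymes were chosen for their place in the pathway.

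Bulk RNA-seq had been made from retinal microglia, the resident macrophages of the retina, at day 3 after laser-induced choroidal neovascularization (CNV d3, 6 samples) and from unlasered control mice (control, 6 samples). The labels give C57BL/6J mice of 8 weeks, and the methods specify *Cx3cr1* GFP/+ mice on that background, so that all samples of both groups carried 1 reporter allele in place of a working *Cx3cr1* copy. In the CNV d3 group 6 argon laser burns had been set in each eye, and the central retina was taken in both groups. The cells were sorted for CD45 (low in the methods), CD11b and CX3CR1 and against Ly6C and Ly6G. No source used here links a sample to 1 animal or to a pool, and p-values measure the spread between samples, which may be partly technical. Every sample is a pool of sorted cells, in which fewer cells of a type and less RNA per cell cannot be told apart.

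The libraries held between 10963178 and 22335233 reads on genes in control and between 23532260 and 29523018 in CNV d3, so all CNV d3 samples were the deeper ones. A normalized count, the deposited unit, is the number of reads divided by a size factor of the sample, and 1 read was worth between 0.739 and 1.99 normalized counts. In the comparison of all genes, 8.29% of the genes were called higher in CNV d3 and 4.57% lower (limma, Benjamini-Hochberg adjusted p under 0.05 over all genes). Increased differentially expressed genes (DEG, log2 fold change above 1.5) made up 3.91% and decreased DEG 1.07%. The groups were fully apart with CNV d3 higher in 4.64% of the genes and with CNV d3 lower in 2.83%. Among the 9713 genes with a mean of at least 100 normalized counts over all samples, 15.3% were called higher and 10.8% lower.

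The sequences in front of the genes of the receptor and of the enzyme that starts its ligand are shown, because these members had the widest gaps between the groups. *Gpr183* lies on mouse chromosome 14 (GRCm38, chr14:121952551-121965195, minus strand), within the span of *Ubac2* on the other strand and with 0 exonic bases in common. *Ch25h* is a gene of 1 exon (chr19:34473778-34475164, minus strand). The 250 bases before each start (RefSeq, GRCm38.p6) are chr14:121965194-121965443 for *Gpr183* and chr19:34475149-34475398 for *Ch25h*, both on the minus strand and written 5′ to 3′, with a match to a searched motif in capitals.
Gpr183: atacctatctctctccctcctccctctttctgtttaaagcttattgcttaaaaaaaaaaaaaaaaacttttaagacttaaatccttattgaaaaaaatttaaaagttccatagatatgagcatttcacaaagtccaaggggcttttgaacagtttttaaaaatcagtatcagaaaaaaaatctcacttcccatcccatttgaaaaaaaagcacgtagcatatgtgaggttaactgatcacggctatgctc
Ch25h: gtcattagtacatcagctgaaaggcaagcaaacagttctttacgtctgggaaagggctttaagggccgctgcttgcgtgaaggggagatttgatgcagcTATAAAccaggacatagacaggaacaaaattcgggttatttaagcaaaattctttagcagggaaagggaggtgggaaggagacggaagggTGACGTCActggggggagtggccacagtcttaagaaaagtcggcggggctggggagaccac
The *Ch25h* sequence had a match to the letters of a TATA box (TATAAA) that began 151 bases before the start. It also had a match to the letters of a cyclic AMP response element (TGACGTCA) that began 61 bases before the start. These matches did not overlap, and whether either acts as such an element was not tested. TATAAA was found in 12.97% and TGACGTCA in 1.62% of the 27025 windows of this length, searched on both strands, with 1 window per gene. The *Gpr183* sequence held none of the letters searched and had a GC content of 32%, against 50.4% for *Ch25h*. The other letters searched in both were GAAANNGAA (from the core of the interferon-stimulated response element, in 7.16% of windows), TTCNNNGAA (STAT, 7.18%), TGANTCA (AP-1, 6.87%), CCAAT (34.5%), GAGGAAGT (PU.1, 2.44%) and GGGANTTTC (NF-kappaB, 0.977%).

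*Gpr183* was abundant in control microglia and lower in every CNV d3 sample. In control samples 1 to 6 it had 10642, 9873, 11334, 12441, 9766 and 9814 normalized counts. In CNV d3 samples 1 to 6 it had 5381, 3643, 2412, 4218, 3819 and 3354. The highest CNV d3 sample, sample 1, thus stood below the lowest control, and sample 3 was the lowest of all. Groups apart in this direction were seen in 2.83% of all genes, from which nothing is read for a gene picked on this contrast. The control mean was 10645 ± 1073 and the CNV d3 mean 3804 ± 982 (SD, n = 6 each), which is 35.7% of the control mean. The log2 fold change was -1.52 (SE 0.15), just past the limit of 1.5 for a DEG, and with single samples left out it lay between -1.63 and -1.40. It was short of that limit without control sample 4 (-1.47), CNV d3 sample 3 (-1.40) or CNV d3 sample 6 (-1.49), and with edgeR (-1.47) and DESeq2 (-1.48). These values rested on 4942 to 12258 reads per control sample and 2696 to 7284 per CNV d3 sample, so counting error was small beside the spread between samples. That spread was wider after laser, with a coefficient of variation of 25.8% against 10.1% in control.

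**Figure D1:**
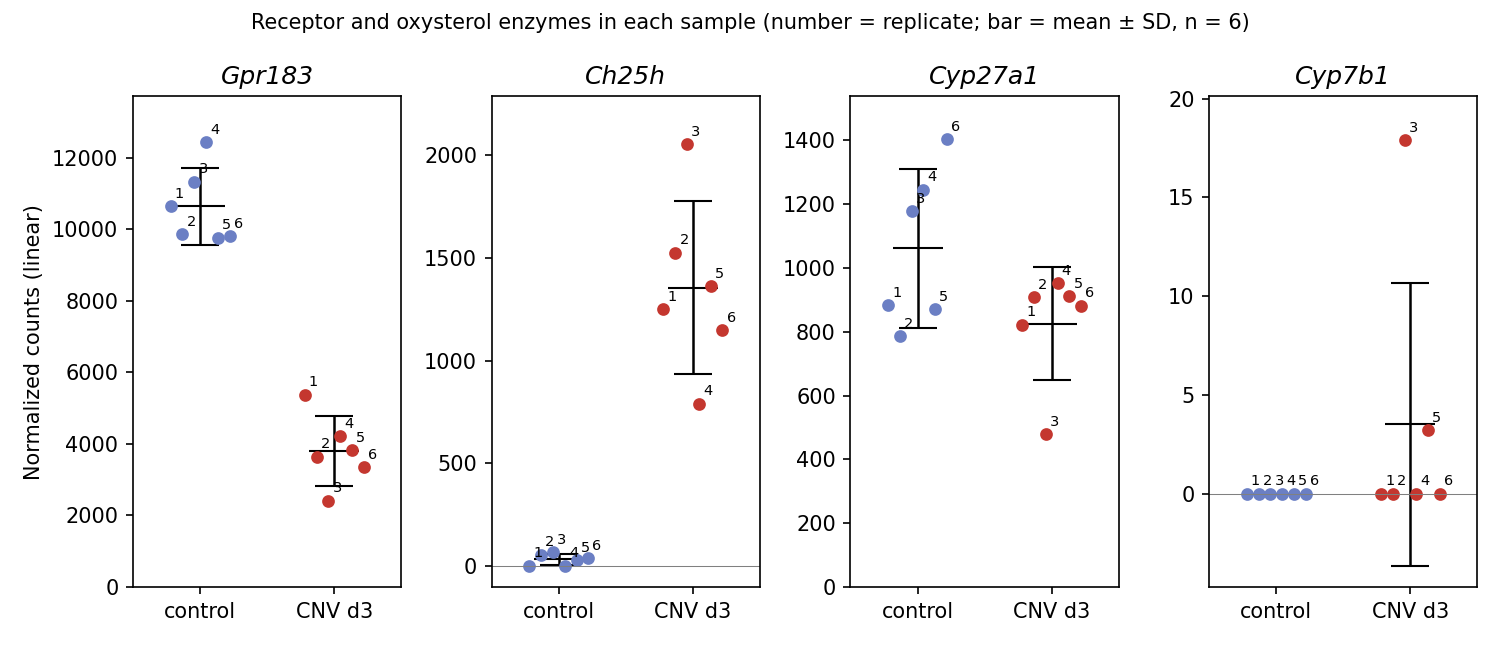
Normalized counts (linear axes from 0 or just below, 1 panel per gene) of Gpr183, Ch25h, Cyp27a1 and Cyp7b1 in the 6 control (blue) and 6 CNV d3 (red) samples, with replicate numbers and bars for mean ± SD. Gpr183 and Ch25h separate the groups in opposite directions, Cyp27a1 overlaps with CNV d3 sample 3 lowest at 478, and Cyp7b1 is above 0 only in CNV d3 samples 3 and 5.

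The reads of *Gpr183* can be set beside those of its neighbours, since the library kit does not mark strand. *Ubac2*, an endoplasmic reticulum membrane protein whose introns contain the receptor gene, had 1930 ± 335 normalized counts in control and 1708 ± 130 in CNV d3 (SD, n = 6; log2 fold change -0.16, limma adjusted p = 0.435). *Gpr18*, another receptor gene known to lie in the same span, had 55.1 ± 36.6 and 74.8 ± 16.7 (SD, n = 6; adjusted p = 0.443). The groups of both neighbours overlapped.

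Per kilobase of exon, *Gpr183* had a level of 3687 ± 372 normalized counts in control and 1318 ± 340 in CNV d3 (SD, n = 6). It ranked 202 among 16060 protein-coding genes in control, which put it above 98.7% of them, and 679 in CNV d3. Among 50 G protein-coupled receptors of microglia and macrophages it ranked 10 in control and 13 in CNV d3. Next to it in control were the complement receptor *C5ar1*, higher in 5 of 6 samples, and the fatty acid receptor *Gpr84*, higher in 2 of 6, and the difference of means from *Gpr84*, 447 per kilobase, was smaller than the larger SD of the pair, 467. In CNV d3 its level was within the spread of *Gpr84* and of the hydroxycarboxylic acid receptor *Hcar2*, whose means differed from it by 37.6 and 58.9 per kilobase. The purinergic receptors *P2ry12* and *P2ry13* had a higher mean level per kilobase than *Gpr183* in both groups.

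**Figure D2:**
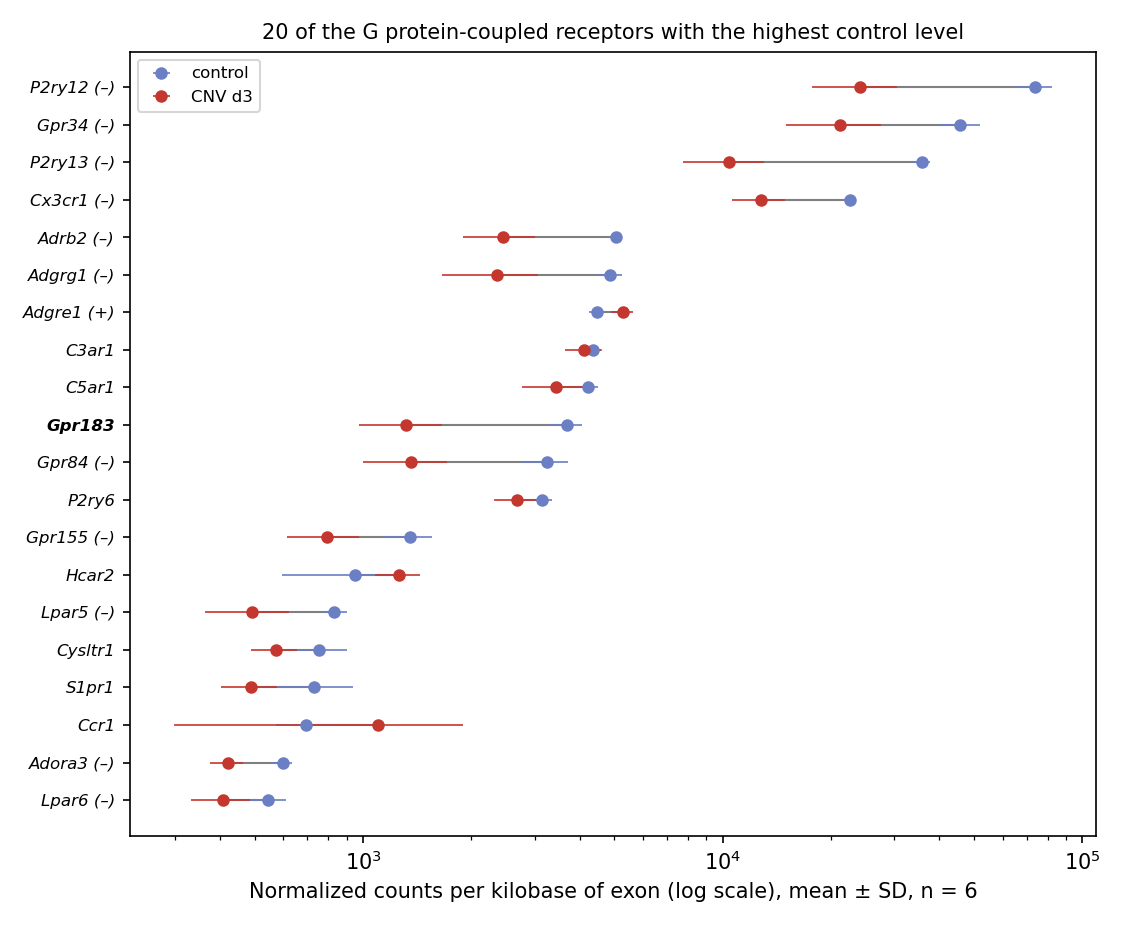
Normalized counts per kilobase of exon (log axis, mean ± SD, n = 6) of 20 of the receptors with the highest control level, in control (blue) and CNV d3 (red), with (+) or (–) for receptors called higher or lower by limma and no mark for Gpr183, which was not tested. Gpr183 goes from 3687 to 1318 and moves from rank 10 to rank 13 of 50.

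*Ch25h*, which makes the first intermediate of the ligand, rose from near 0 to a level per kilobase above 94.0% of the protein-coding genes. The control samples 1 to 6 had 0, 53.7, 65.3, 0, 29.1 and 37.7 normalized counts. The CNV d3 samples had 1252, 1526, 2055, 790, 1363 and 1147. All CNV d3 samples were far above all controls, with sample 3 highest and sample 4 lowest, and control samples 1 and 4 had no read, where 3 reads, the smallest signal taken as detectable, would be 3.22 and 3.04 normalized counts. The mean rose from 31.0 ± 27.1 to 1356 ± 422 (SD, n = 6), a ratio of 43.8. The log2 fold change on log2(normalized count + 1) was 6.68 (SE 1.00, limma adjusted p = 0.000480), an increased DEG, and with edgeR on the recovered reads it was 5.47. In reads, the controls held 0 to 58 per sample and the CNV d3 samples 913 to 2297. Per kilobase, its rank among protein-coding genes went from 9221 to 971, and its CNV d3 level of 977 ± 305 was below the 1318 ± 340 of *Gpr183* in the mean and in 5 of 6 samples. In sample 3 the order was turned, with 1482 for *Ch25h* and 836 for *Gpr183*. It was called as 1 of the 3 enzymes with a row, where 8.29% of all genes were called higher, 3.91% were increased DEG and 4.64% had groups that did not overlap.

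*Gm26902* is a long noncoding RNA gene that starts inside *Ch25h* on the other strand and shares 159 exonic bases with it, 11.5% of the *Ch25h* exon. It had 0 reads in all 6 controls and between 11.6 and 60.9 normalized counts in CNV d3 (mean 37.3 ± 16.3, SD, n = 6, limma adjusted p = 0.000117). It was therefore called in the same direction as *Ch25h* at a much lower normalized count. Without strand, reads of the 2 genes cannot be assigned with certainty where they overlap, and counting at default settings leaves out reads that overlap exons of both.

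*Cyp7b1*, which completes the ligand, was at the limit of detection. It had 0 reads in all 6 controls and in CNV d3 samples 1, 2, 4 and 6. CNV d3 sample 3 held 20 reads (17.9 normalized counts) and sample 5 held 4 reads (3.20). The CNV d3 mean of 3.52 was below the value of 3 reads in the shallowest control, 5.96, so no fold is given, and limma gave an adjusted p of 0.339. At this depth *Cyp7b1* RNA was not detectable in control microglia, which is not evidence that it was absent.

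*Cyp27a1*, the enzyme of the parallel route, was the most evenly expressed of the enzymes. In control samples 1 to 6 it had 882, 786, 1178, 1245, 870 and 1404 normalized counts. In CNV d3 samples 1 to 6 it had 822, 909, 478, 953, 911 and 881. The groups overlapped, and 5 of the 6 CNV d3 samples lay close together between 822 and 953 while sample 3 had 478. The mean was 1061 ± 249 in control and 826 ± 176 in CNV d3 (SD, n = 6), with a log2 fold change of -0.36 (SE 0.19, limma adjusted p = 0.272). Per kilobase it was above *Ch25h* in control (488 ± 114 against 22.3 ± 19.5) and below it in CNV d3 (380.0 ± 80.9 against 977 ± 305).

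*Hsd3b7*, which ends the signal by breaking down the ligand, lies on chromosome 7 (GRCm38, chr7:127800604-127803802, plus strand). In Gencode M21 99.2% of its exonic bases are shared with *Gm49388* on the same strand and *9430064I24Rik* on the other, and neither of these has a row. The authors counted with Gencode M25. Counting at default settings leaves out reads that overlap exons of more than 1 gene. Whether this left *Hsd3b7* without a row was not tested. Of the pathway from cholesterol to the ligand and away from it, the table gives values for the starting step, for the finishing step at the limit of detection, and for the parallel route.

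Sample 3 of CNV d3 had the lowest *Gpr183*, the highest *Ch25h*, the lowest *Cyp27a1* and the most *Cyp7b1* reads. Over the 6 CNV d3 samples the log2 values of *Gpr183* and *Ch25h* had a Pearson r of -0.63 (exact permutation p = 0.143) and a Spearman rho of -0.54 (exact permutation p = 0.297). Over the same samples r was 0.71 for *Gpr183* with *Cyp27a1* (rho 0.43) and -0.75 for *Ch25h* with *Cyp27a1* (rho -0.54). In control, r was 0.42 for *Gpr183* with *Cyp27a1* (rho 0.31). None of these 4 relations passed the exact permutation test (two-sided, adjusted p between 0.259 and 0.407 for r and between 0.559 and 0.564 for rho). Without the 2 of 6 samples farthest from the median of the first gene named in each pair, r was -0.59, 0.98, 0.53 and -0.24. The sign of the third and the fourth thus rested on the samples left out.

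Markers of microglia and of other cells also differed between the groups. None of 12 microglia markers was at 0 in a whole group. Their sum was between 1307323 and 1450731 normalized counts in control and between 762999 and 1106308 in CNV d3, where 6 of the 12 were called lower and *Itgam* was called higher. Among genes with a mean of at least 100 normalized counts, 10.8% were called lower and 15.3% higher. Within CNV d3, the order of the samples by this sum (1, 4, 5, 2, 6, 3 from high to low) was the same as their order by *Gpr183*. In control the orders differed, with sample 5 highest for the markers and lowest for *Gpr183*. As a share of the microglia marker sum, *Gpr183* was 0.786% ± 0.0951 in control (0.673% to 0.931%) and 0.395% ± 0.0542 in CNV d3 (0.316% to 0.486%, SD, n = 6). The groups did not overlap on this scale either, from which nothing is read for a gene picked on this contrast. The sum itself contains receptors that were called lower.

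The sum of 10 monocyte markers was between 958 and 1984 in control and between 5986 and 52669 in CNV d3, highest in samples 3 and 6. Within CNV d3, the order of the samples by this sum (3, 6, 2, 5, 4, 1 from high to low) was the reverse of their order by *Gpr183*. Of these markers 6 were called higher and 0 lower. Beside each marker count stand 8.29% called higher and 4.57% lower among all genes. Among those with a mean of at least 100 normalized counts the shares were 15.3% and 10.8%. The matrix gene *Fn1* made up 62.9% to 90.0% of the sum in CNV d3 and at most 4.16% in control. Without it the ranges were 958 to 1933 and 2030 to 5279, and the CNV d3 order was 3, 6, 5, 2, 1, 4. *Ly6c2* and *Chil3* were among the markers at 0 in all controls, and *Ly6c2* reached a mean of 12.9 ± 8.26 in CNV d3 (SD, n = 6). Of 9 dendritic cell markers 5 were called higher and 1 lower, *Cd209a* and *Clec10a* were at 0 in all controls, and the sum without *Siglech*, which microglia also express, was 23.8 to 514 in control and 331 to 2276 in CNV d3. Of 8 border macrophage markers 3 were called higher (sums of 2222 to 4004 and 4179 to 6691). None of the measured neutrophil (6), B cell (3), T cell (7), photoreceptor (10) and retinal pigment epithelium (5) markers was called. Of the Müller glia and astrocyte markers 2 of 8 were called higher and 1 lower, and of the endothelial markers 1 of 5 in each direction. Nothing is read from counts this small. *Apoe*, among the Müller glia and astrocyte markers called higher, is also on the list below of macrophage genes of the oxysterol receptor LXR. With CNV d3 samples 3 and 6 left out, a choice made after the data were seen, the log2 fold change was -1.33 for *Gpr183* and 6.56 for *Ch25h* (limma adjusted p = 0.0242). The CNV d3 samples kept in this fit still had monocyte marker sums of 5986 to 19465, against at most 1984 in control, so it cannot separate other cells from microglia. The part of other cells in these values was not tested.

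**Figure D3:**
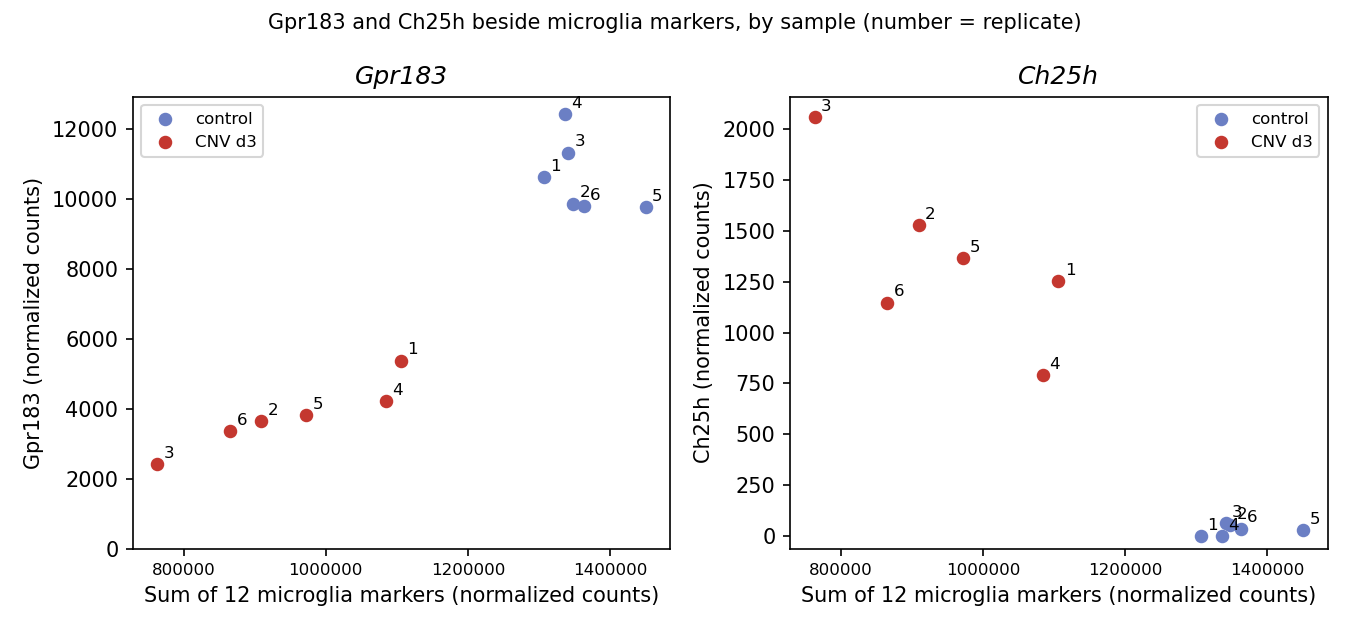
Normalized counts of Gpr183 (left) and Ch25h (right) against the sum of 12 microglia markers in normalized counts, with 1 point per sample, labelled by replicate number (control blue, CNV d3 red). The CNV d3 samples range from 762999 to 1106308 on the marker axis and keep the same order for Gpr183, while Ch25h is highest in sample 3 and lowest in sample 4.

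The genes most like *Gpr183* within the groups were named by the Pearson r of log2 values over all 12 samples after removal of each group mean, among 10137 genes with a mean of at least 100 in either group. They were *Trf*, which encodes the iron carrier transferrin (r = 0.95), the lysosomal protease *Ctsf* (0.92), the protease inhibitor *Cst3* (0.91), the DNA-sensing adaptor *Sting1* (0.91) and the zinc finger gene *Zfp871* (0.90). Their own log2 fold changes were -0.03, -0.36, -1.47, -0.81 and -0.58, so that genes with a like pattern among replicates had unlike differences between the groups. In the same order, r was 0.83, 0.50, 0.53, 0.50 and 0.70 within control and 0.97, 0.97, 0.96, 0.99 and 0.93 within CNV d3. The values share their libraries and size factors, and r is given as a description.

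Around the members, 7 lists of genes were counted, each without the members. The median log2 fold change of all genes was 0.15. Each count stands beside 8.29% called higher and 4.57% called lower among all genes, and 15.3% and 10.8% among those with a mean of at least 100, and a share near these is not a result about a list. Of 15 other oxysterol enzymes with a row, 3 were called higher and 0 lower, with a median of 0.02, against 8.29% and 4.57% of all genes. *Hsd17b4*, a peroxisomal enzyme that shortens sterol side chains and fatty acids, rose from 3668 ± 789 to 6971 ± 801 (SD, n = 6, limma adjusted p = 0.000331) without overlap. Among all genes 4.64% were apart in this direction. The sterol carrier gene *Scp2* rose from 1262 ± 223 to 1691 ± 193 (SD, n = 6, adjusted p = 0.0428), a call that was lost with 8 of the 12 single samples left out. *Cyp39a1*, which hydroxylates another oxysterol on its ring, had a single read in all controls together and 18 to 67 reads per CNV d3 sample (mean 30.9 ± 16.8 normalized counts, SD, n = 6, adjusted p = 0.000260).

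Of 27 oxysterol sensors and carriers, 1 was called higher and 2 lower (median 0.19), against 8.29% and 4.57% of all genes. The one called higher was *Nr1h3*, the gene of the nuclear oxysterol receptor LXR alpha, at 15.5 ± 34.3 in control and 39.5 ± 16.2 in CNV d3 (SD, n = 6, limma adjusted p = 0.0494). Control sample 5 alone had 85.3, and the call was lost with 11 of 12 single samples left out. *Npc1*, which exports cholesterol from lysosomes, was lower in CNV d3 at 2301 ± 191 against 3435 ± 337 (SD, n = 6, adjusted p = 0.000815), and the sterol carrier *Stard5* at 566 ± 90.8 against 823 ± 120.

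Of 14 genes that LXR switches on in macrophages, 5 were called higher and 2 lower (median 0.22), against 8.29% and 4.57% of all genes and 15.3% and 10.8% of those with a mean of at least 100. The cholesterol exporter *Abca1* rose from 1935 ± 597 to 5286 ± 960 (SD, n = 6, limma adjusted p = 0.000133). The exporter *Abcg1* rose from 559 ± 195 to 2116 ± 489 (SD, n = 6, adjusted p = 8.23e-05), and the lipid carrier *Apoe* from 20865 ± 7381 to 68946 ± 16057. For these 3 genes the groups did not overlap, where 4.64% of all genes were apart with CNV d3 higher. The desaturase *Scd2* rose from 824 ± 281 to 1775 ± 581, while the engulfment receptor *Mertk* fell from 14594 ± 1540 to 10414 ± 2025 and the phospholipid enzyme *Lpcat3* from 5625 ± 558 to 4154 ± 374 (SD, n = 6 each). For *Lpcat3* the groups did not overlap either, with CNV d3 lower, where 2.83% of all genes were apart in that direction. Of 18 SREBP2 targets, genes of cholesterol uptake and synthesis that *Ch25h*'s product is known to hold down, 0 were called higher and 1 lower (median 0.21), the sterol oxidase *Msmo1* at 2379 ± 458 in control and 1461 ± 393 in CNV d3. With CNV d3 samples 3 and 6 left out, 3 LXR targets were called higher and 1 lower, and *Abca1*, *Abcg1* and *Apoe* kept their call. Without control sample 2, CNV d3 sample 2 or CNV d3 sample 6, 1 LXR target was called lower. Without control sample 5 or CNV d3 sample 3, 2 SREBP2 targets were called lower.

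Of 27 genes of Gi and arrestin signalling, through which the receptor acts and is switched off, 5 were called higher and 2 lower (median 0.52). The shares were 8.29% and 4.57% among all genes and 15.3% and 10.8% among those with a mean of at least 100. The list was not filtered by mean, so neither share is a like comparison, and nothing is read from the count. *Gnai2*, the main Gi alpha subunit of leukocytes, rose from 19708 ± 716 to 30416 ± 3094 (SD, n = 6, limma adjusted p = 5.86e-05). The beta subunits *Gnb1* and *Gnb2* rose from 4028 ± 702 to 7938 ± 753 and from 2699 ± 313 to 4000 ± 546, and the receptor kinase *Grk2* from 2810 ± 376 to 4013 ± 449 (SD, n = 6). *Rgs2* and *Rgs10*, which shorten G protein signals, fell from 21196 ± 1209 to 13505 ± 1655 and from 13553 ± 1796 to 9786 ± 982 (SD, n = 6). Without control sample 6, 8 genes of this list were called higher, and without CNV d3 sample 1, 4 were called lower.

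Of 49 other receptors, 9 were called higher and 14 lower (median -0.03), where 8.29% and 4.57% of all genes were. *P2ry12* fell from 187891 ± 21856 to 61433 ± 16223 and *P2ry13* from 90344 ± 5214 to 26288 ± 6703 (SD, n = 6, limma adjusted p = 1.01e-05 and 3.02e-06). *Gpr34*, which senses lysophosphatidylserine, fell from 95694 ± 12516 to 44432 ± 13164, and the fractalkine receptor *Cx3cr1* from 101929 ± 2529 to 57441 ± 9571. Their log2 fold changes, -1.65, -1.82, -1.15 and -0.84, lie on both sides of the -1.52 of *Gpr183*. Among those called higher, *Adgre1* rose from 14488 ± 749 to 17070 ± 1209 and the kynurenate receptor *Gpr35* from 1788 ± 380 to 2533 ± 290 (SD, n = 6). The chemokine receptor *Ccr7* rose from 5.39 ± 12.1 to 720 ± 509, with no read in CNV d3 sample 4, and the prostaglandin receptor *Ptger4* from 121 ± 87.9 to 684 ± 270 (SD, n = 6). With CNV d3 samples 3 and 6 left out, 2 receptors were called higher and 12 lower, and none of these 4 named receptors called higher kept its call, at log2 fold changes of 0.19, 0.46, 5.90 and 3.15 in the order named, where all samples gave 0.24, 0.53, 6.89 and 3.47. Leaving out single samples gave 4 to 9 called higher and 12 to 14 lower, with 4 higher without CNV d3 sample 6 and 5 without CNV d3 sample 2 or 3 or control sample 6.

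*Ch25h* is known as an interferon-responsive gene of macrophages, and whether interferon acted on it here was not tested. Of 20 interferon genes 11 were called higher and 0 lower (median 1.24), against 8.29% and 4.57% of all genes. *Ifit2* rose from 2901 ± 1614 to 7148 ± 2006, *Oasl2* from 2760 ± 2106 to 6226 ± 1963, *Irf7* from 1738 ± 1157 to 5459 ± 1552 and *Ifit3* from 2239 ± 1289 to 4793 ± 1045 (SD, n = 6). In these 4 the groups overlapped, and of the 11 called the groups were apart in 2, *Mx1* and *Ifi44*, named after their values were seen. Among all genes 4.64% were apart with CNV d3 higher, and nothing is read from these 2. The count of called interferon genes depended on the samples, with 5 called without CNV d3 sample 6, 6 without CNV d3 sample 3, 7 without control sample 2, and 0 without CNV d3 samples 3 and 6 together. In that fit with fewer samples the log2 fold changes of *Ifit2*, *Oasl2*, *Irf7* and *Ifit3* were 1.23, 1.21, 1.68 and 1.12, where all samples gave 1.44, 1.42, 1.82 and 1.25. A gene at 0 in a whole group was also set to the bound of 3 reads or, with both groups at the floor, left out, and the medians of the 7 lists then lay between -0.07 and 1.24.

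**Figure D4:**
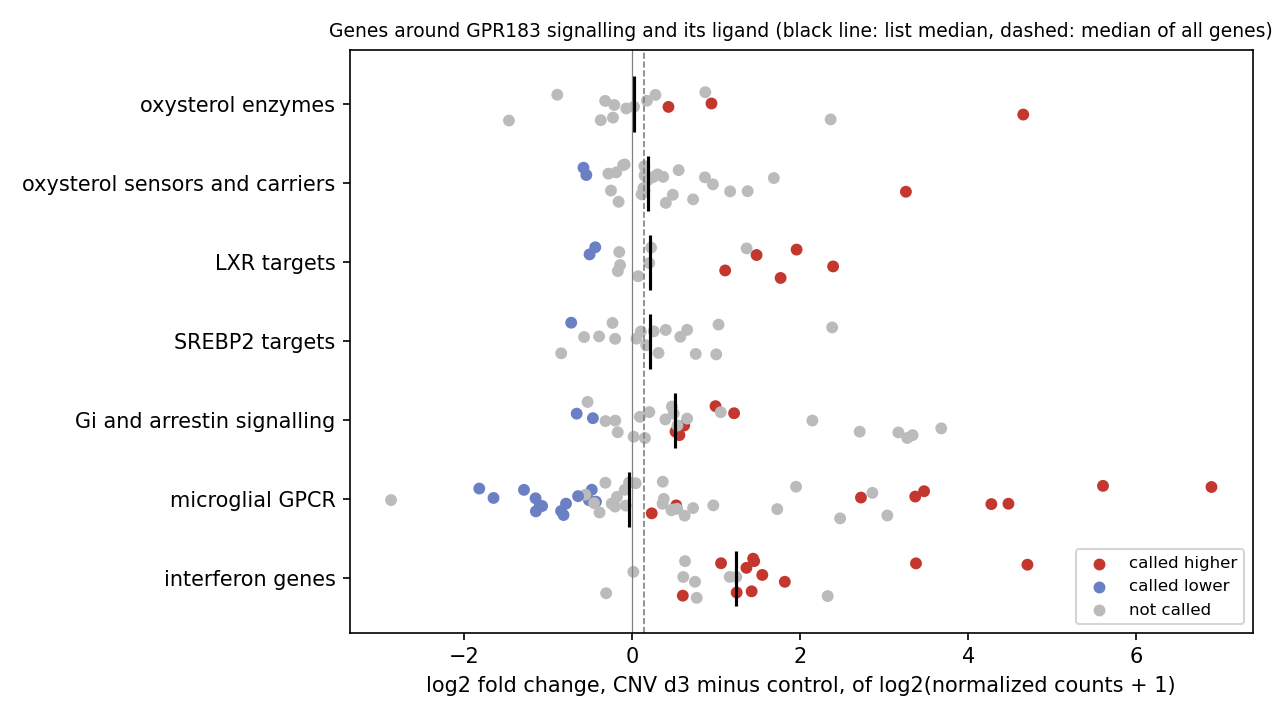
Log2 fold changes (CNV d3 minus control, of log2(normalized counts + 1)) of the measured genes of 7 lists around GPR183, with 1 point per gene, red where called higher, blue where called lower and grey where not called, a black line at the median of each list and a dashed line at the median of all genes, 0.15. Medians lie between -0.03 for the receptors and 1.24 for the interferon genes, with points on both sides of 0 in each list.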

How the data were processed

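The authors mapped single-end reads with STAR 2.7.2b to GRCm38.p6 (Gencode M25), merged the files of each sample (7 of the 12 samples, among them all 6 controls, are listed in 2 parts), counted with featureCounts 1.6.4 and removed genes without reads. The deposited signal of a gene is its read count divided by a DESeq2 1.22.2 size factor. It was tested on log2(value + 1) with limma 3.58.1 in R 4.3.3, using a mean-variance trend and no filter, over 27299 genes, and tested on simulated data. Reads were recovered from the step of the values (100% came out whole within 0.001 in each sample) for edgeR 4.0.16, DESeq2 1.42.0 and limma voom as alternatives. The deposited fold changes, p-values and group means were not used, and 0 columns belonged to other samples. PCR copies without molecular identifiers mean that a floor of 3 reads covers counting error only. Positions and exon lengths came from Gencode M21 of the same build (27238 genes matched). The members, lists and rules were chosen with earlier results of these data known. Named were the members, up to 4 called genes per direction and list with the highest mean, all called oxysterol enzymes, and the 5 genes most like Gpr183; neighbouring genes and single markers were chosen after their values were seen. Values of some single genes are not reported here.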

Additional observations from a re-analysis of the deposited data

Results flagged for a closer look

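In 74 groups of 6 samples from the genes named, the highest or lowest sample was checked for a gap to the nearest other sample larger than Dixon's critical share of the group's range on the log2 scale, which chance gives in about 1 of 20 groups, and 10 were found. *Cyp27a1* had 478 normalized counts in CNV d3 sample 3, where the next sample had 822. *Gpr18* had 2.15 in control sample 1, against 38.3 in the next. *Cyp39a1* had 1.00 in control sample 5 and 0 in the others, and *Nr1h3* had 85.3 in the same sample, against 3.38 in the next. *Msmo1* was highest in control sample 3 at 3270 (next 2380), and *Gpr35* in CNV d3 sample 3 at 3088 (next 2537). *Ccr7* was set apart in both groups, with 30.1 in control sample 1 (next 2.25) and 0 in CNV d3 sample 4 (next 375). *Ptger4* was at 0 in control sample 1 (next 54.0), and *Ifit2* was lowest in CNV d3 sample 1 at 3709 (next 6750). *Gpr183* and *Ch25h* had no such sample in either group.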

How the results depend on the processing

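The members, their neighbours and the named list genes, but not the genes most like *Gpr183*, were refitted under up to 24 alternatives: pseudocounts of 0.5 and 5, a filter on low values, TMM and upper quartile scaling, edgeR, DESeq2, limma voom, no trend, thinned reads, the replicate block, each sample left out, and, chosen after seeing the data, CNV d3 samples 3 and 6 left out. Of 886 values of the 37 tested genes, 793 kept their direction and their side of the threshold, 93 lost the call and 0 reversed. *Gpr183*, not tested, stayed between -1.63 and -1.33, short of the DEG limit of 1.5 in 6 of 24 refits, and *Ch25h* between 5.45 and 7.15 (adjusted p 1.56e-07 to 0.0242). *Cyp27a1* stayed between -0.44 and -0.21 (0.173 to 0.514) and the adjusted p of *Cyp7b1*, for which no fold is given, between 0.106 and 0.519. *Cyp7b1* did not pass the filter on low values, and DESeq2 gave it no adjusted p. Of the 2264 genes called higher, 1247 called lower, 1068 increased and 293 decreased DEG, edgeR gave 1952, 1181, 839 and 281, DESeq2 gave 2170 called lower and 572 decreased DEG, limma voom gave 489 decreased DEG, and leaving out CNV d3 samples 3 and 6 gave 1124, 688, 553 and 176, with fewer samples. Single samples left out gave 1737 to 2319, 1022 to 1455, 829 to 1041 and 237 to 358; the cause was not tested. No pairing of the samples by number is stated. Same-numbered samples had correlations between -0.05 and 0.07 over 9713 genes, which shows no pairing but cannot exclude it. With the replicate block, 1885 genes were called higher and 975 lower, and *Ch25h* had an adjusted p of 0.000914. Depth limits *Cyp7b1* and the control level of *Ch25h*, and the CNV d3 samples are all deeper than the controls. Of the 7 samples listed in 2 parts, 6 were controls, so an effect of the parts could hardly be told apart from the laser treatment.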
